A study of Mus musculus with 6 samples.

Results

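Heparan sulfate and chondroitin sulfate proteoglycans of left and right cervical motoneuron regions were examined through 41 genes, chosen by gene symbol. They encode the core proteins, the enzymes that build, sulfate or edit their sugar chains, and receptors of the LAR family that bind the chains. All probe sets annotated to exactly 1 of these genes were taken, which gave 100 of the 45037 probe sets for 40 of the 41 genes. Ndst1 was not analysed here. Of the 100 probe sets, 64 reached a signal of 200 in at least 1 pool, the intensity limit of the study's methods, and were tested, out of 21853 probe sets tested in all. These 64 stand for 33 genes.

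A proteoglycan is a protein that carries long, sulfated sugar chains, which bind growth factors, guidance cues and matrix proteins. Heparan sulfate is a known cofactor of Slit and Robo, the ligand and receptor of an axon guidance pathway, and the places of its sulfate groups set which proteins it binds. Chondroitin sulfate proteoglycans are abundant in neural matrix and generally act on axons as barriers, in part through LAR family phosphatases on the growth cone.

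The study asked which transcripts differ between left and right motoneurons of the neck region, where the phrenic nerves arise. It compared 3 left pools with 3 right pools from 3 littermate mouse embryos at E11.5, all carrying the HB9::GFP transgene, a reporter in which the promoter of the motoneuron gene HB9 (Mnx1) drives GFP. Fluorescent areas on the left and on the right of the same sections were cut out by laser, so that each embryo gave 1 pair, and each pool was hybridised to 1 Affymetrix mouse array. No sample was treated and no other genotype was used. The areas were chosen by GFP and can hold other cells. In such bulk samples fewer cells of a type and less RNA per cell cannot be told apart.

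Signals are MAS5 intensities scaled to the same trimmed mean on each array, and medians over probe sets ran from 99.9 to 118. Mnx1 read 3520 to 5219 in the 6 pools, and all 10 generic motoneuron genes on a marker list reached 200. The right pool of embryo 1 stood apart from the other 5 in genes of mesenchyme and muscle. Its summed signal over 17 mesenchyme and sclerotome genes was 20551, against 2096 to 3878 in the others, and its summed signal over 8 skeletal muscle genes was 6310, against 180 to 371. For most genes whose largest ratio to the right came from this pool, the mean without embryo 1 is given as well. The sides also differed in 5 roof plate and dorsal progenitor genes. Their summed signal was 361, 319 and 559 in the left pools of embryos 1, 2 and 3. In the right pools it was 2232, 1206 and 690, so every right pool exceeded every left pool. The part of this difference in the side ratios was not tested.

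Neurocan, versican, perlecan, syndecans 1 and 3, glypicans 1 and 2 and the 3 LAR family receptors were all read above the limit in every pool, and the median side ratio of the proteoglycan genes was close to that of all probe sets. For each gene the probe set with the highest mean signal, called the brightest, stands for the gene unless another is named. It reached 200 in all 6 pools for 23 genes, in 1 to 5 pools for 10 genes, namely Sdc2, Sdc4, Gpc3, Gpc4, Gpc6, Ndst2, Ndst4, Sulf1, Bcan and Cspg4, and in no pool for 7 genes, namely Extl1, Ndst3, Hs3st1, Hs6st3, Hpse, Acan and Chpf. The signal of one probe set cannot be read against that of another, so these classes say where a gene was read above the limit and not which gene had more RNA.

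**Figure D1:**
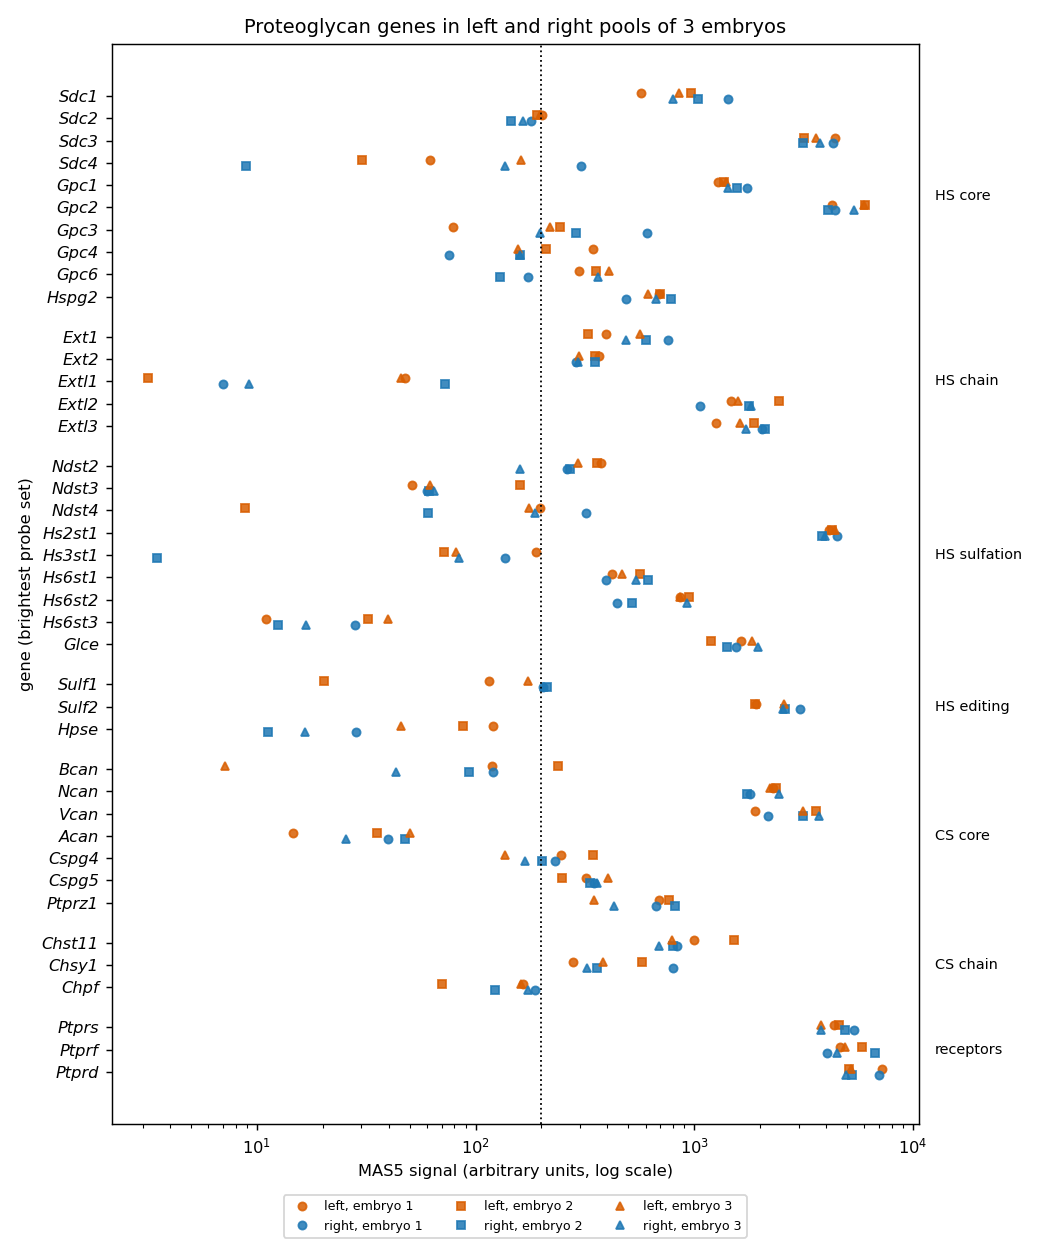
MAS5 signal (arbitrary units, log scale) of the brightest probe set of each of 40 proteoglycan genes, grouped by role, in the 3 left pools (orange) and the 3 right pools (blue); the marker shape gives the embryo and the dotted line is the limit of 200. For 23 genes all 6 points lie at or beyond the line, for 7 genes all 6 lie before it, and orange and blue points intermingle for most genes.

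Differences between sides were taken as log2(right/left) within each embryo, so that 1 is a doubling on the right. The fold rule of the study's methods asks for the same sign in all 3 embryos, with the mean and at least 2 embryos beyond 0.58, or 1.5-fold. The study also required every embryo to have a pool with a present call. That filter was not applied here, so counts by the rule are not those of the study. By this rule 2 proteoglycan probe sets were higher on the right, those of Sulf1 and Ndst4, and 2 were higher on the left, those of Gpc6 and Vcan. That is 3.12% of the 64 in each direction. Over all tested probe sets the rule was met by 2.40% on the right and 1.55% on the left, so the counts of 2 and 2 lie near the background. None of the 4 probe sets was beyond 1.5-fold in embryo 3.

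In limma, with side and embryo as terms, 0 of the 64 proteoglycan probe sets differed between sides at an adjusted p under 0.05, and the share over all tested probe sets was also 0%. At an unadjusted p under 0.05, 1 of the 64 passed, that of Gpc6 (1.56%, background 3.40%). With 3 embryos an exact two-sided sign-flip test cannot give a p below 0.25, so no single gene could pass such a test. Complete separation of the pools, with no overlap between sides, was seen with right above left in 2 probe sets (Gpc1 and Sulf1, 3.12%, background 2.98%) and with left above right in 2 (Sdc2 and Ndst2, 3.12%, background 2.45%). Of these 4, Sulf1 was tested only through its right pools and Sdc2 only through the left pool of embryo 1, at 201, in each case the side on which it was high.

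The median log2(right/left) over the 64 probe sets was 0.08, against 0.02 over all tested probe sets, with single probe sets between −0.88 and 1.48. Its value was 0.08 in embryo 1, 0.07 in embryo 2 and 0.00 in embryo 3. Of the 64, 39 had a positive and 25 a negative mean ratio, against 11483 and 10370 of the 21853 tested in all. With only the brightest probe set of each of the 33 genes, 18 were positive and 15 negative. Their median was then −0.04 in embryo 1, −0.004 in embryo 2 and 0.01 in embryo 3. The ratio stayed within 1.5-fold in all 3 embryos for 35 (54.7%), close to the background of 48.4%.

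Embryos differed in how many proteoglycan probe sets lay beyond 1.5-fold on each side. In embryo 1, 15 of 64 were over 1.5-fold higher on the right (23.4%, background 19.0%) and 5 on the left (7.81%, background 16.4%). In embryo 2 it was 5 higher on the right (7.81%, background 16.7%) and 12 on the left (18.8%, background 12.9%). The median ratio over the 64 was nonetheless positive in both embryos, at 0.08 in embryo 1 and 0.07 in embryo 2, so these counts describe the outlying probe sets only. In embryo 3 only 2 were over 1.5-fold higher on the right (3.12%, background 2.75%) and 2 on the left (3.12%, background 4.13%). The median SD of the ratio over the 3 embryos was 0.34 for proteoglycan probe sets and 0.39 for all.

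**Figure D2:**
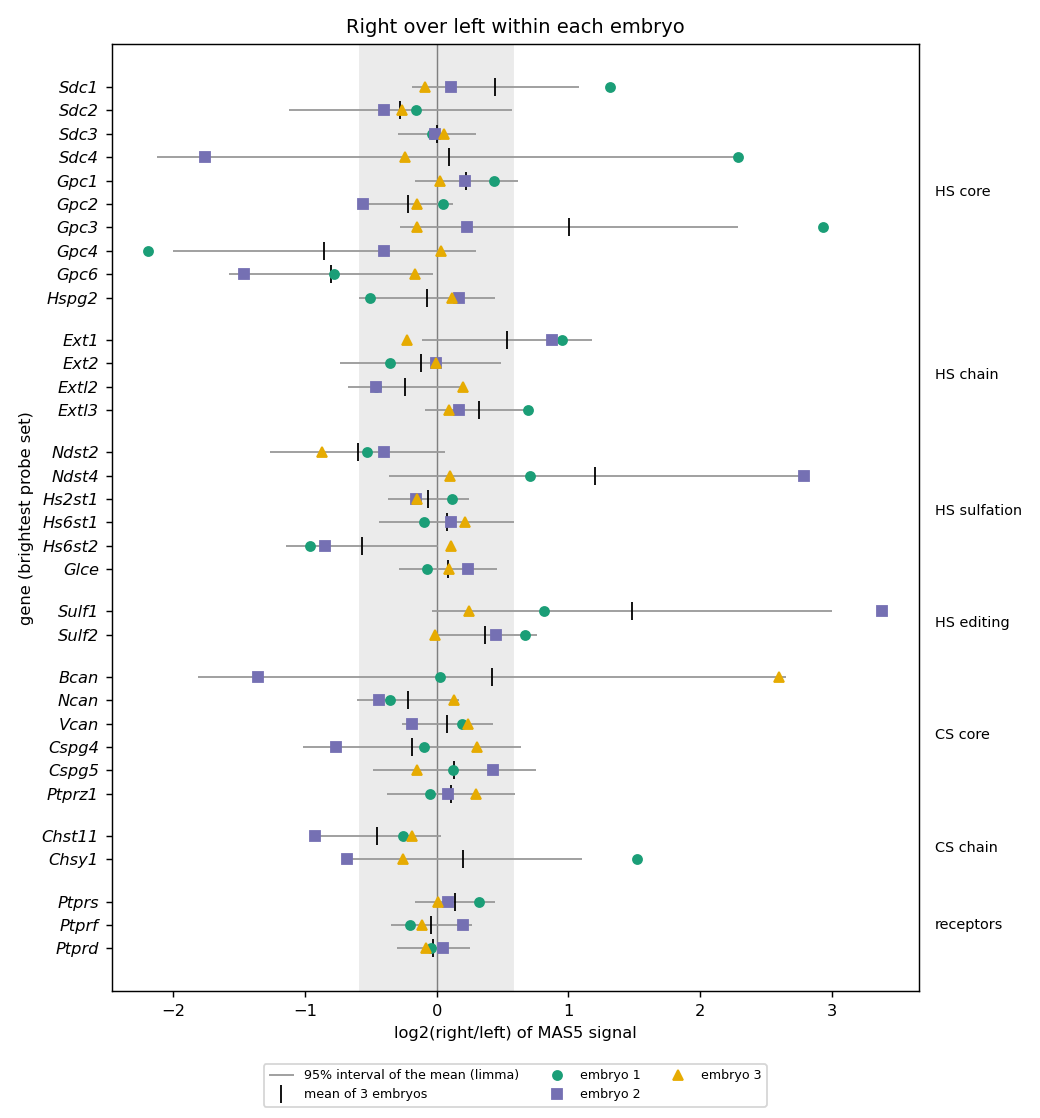
Log2(right/left) of MAS5 signal for the brightest probe set of the 33 tested proteoglycan genes, with 1 coloured point for each embryo, a black tick for the mean of 3 embryos and a grey line for its 95% interval from limma; the shaded band spans 1.5-fold in either direction. Most points lie in the band, the points far outside it belong mainly to embryos 1 and 2, and of all intervals that of Gpc6 alone leaves out 0.

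Of the 33 tested genes, 27 had a brightest probe set with a mean signal of at least 200, and for 19 of these the 95% interval of the mean log2 ratio lay inside 2-fold in both directions. The exceptions were Sdc1, Gpc3, Gpc6, Ext1, Ndst2, Hs6st2, Cspg4 and Chsy1. For the 6 genes with a lower mean signal (Sdc2, Sdc4, Gpc4, Ndst4, Sulf1 and Bcan) every interval reached past 2-fold in at least 1 direction. Among the 51 proteoglycan probe sets with a mean signal of at least 200, 1 met the fold rule in either direction (1.96%, background 2.30%), and among the 13 with a lower mean 3 did (23.1%, background 11.2%). The median SD between embryos was 0.29 in the first class and 1.18 in the second, against 0.34 and 0.82 over all tested probe sets.

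The core proteins of heparan sulfate proteoglycans comprise syndecans, which span the membrane, glypicans, which are held to it by a lipid anchor, and perlecan, a large basement membrane protein. Syndecan 3 (Sdc3), the syndecan best known from neurons, read 4399, 3176 and 3601 in the left pools of embryos 1, 2 and 3 and 4289, 3142 and 3740 in the right pools. The sides overlapped and each embryo's pair was nearly equal, with a mean log2 ratio of 0.00 ± 0.05 (SD, n = 3 embryos) and a 95% interval from −0.30 to 0.30. Its other 2 probe sets gave mean ratios of 0.14 and −0.25.

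Glypican 2 (Gpc2), a glypican of developing neurons, read 4245, 6058 and 6003 (left) and 4394, 4103 and 5399 (right). The pools overlapped, and the mean log2 ratio was −0.22 ± 0.31 (95% interval −0.56 to 0.12). Glypican 1 (Gpc1), another glypican of neurons, read 1289, 1361 and 1401 in the left pools against 1746, 1575 and 1422 in the right pools. All 3 right values lay above all 3 left values, by a small margin in embryo 3, and the mean log2 ratio of 0.22 ± 0.21 (95% interval −0.17 to 0.61), or 0.12 without embryo 1, stayed under the 1.5-fold limit.

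Glypican 6 (Gpc6) gave the only probe set of the group that had an unadjusted p under 0.05 for side. It read 298, 355 and 407 in the left pools and 174, 129 and 363 in the right pools. The left pool was the higher one in each of the 3 embryos, although the right value of embryo 3 exceeded the left values of embryos 1 and 2, so the sides overlapped. The log2 ratios were −0.78, −1.46 and −0.16, with a mean of −0.80 ± 0.65 and a 95% interval from −1.58 to −0.03 (limma, unadjusted p = 0.0443, adjusted p = 0.974). The mean was −0.81 without embryo 1 and −0.47 without embryo 2, and the fold rule was met in neither case. A dimmer tested probe set of Gpc6 read 141, 166 and 192 (left) and 231, 177 and 171 (right), a mean log2 ratio of 0.22 ± 0.45 with the opposite sign. This dimmer probe set was tested only through the right pool of embryo 1, and its mean was −0.04 without embryo 1.

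Glypicans 3 and 4 (Gpc3 and Gpc4), which along with Hs6st2 lie on the X chromosome (RefSeq, GRCm38.p6), differed between sides in embryo 1 and in opposite directions. Gpc3 read 79.0, 244 and 218 in the left pools against 605, 287 and 196 in the right pools. The lowest and the highest value were both from embryo 1, and its log2 ratios of 2.94, 0.23 and −0.15 gave a mean of 1.00 ± 1.68, or 0.04 without embryo 1. Gpc4 read 345, 210 and 157 (left) and 75.6, 159 and 160 (right). Again embryo 1 held both extremes, and the log2 ratios of −2.19, −0.40 and 0.03 gave a mean of −0.85 ± 1.18, or −0.19 without embryo 1. Xist, the RNA made from an inactive X chromosome, was high on both sides of embryo 2, at 2768 or more, and read at most 59.7 on either side of embryo 1 and at most 80.5 on either side of embryo 3.

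Syndecan 1 (Sdc1) read 572, 966 and 849 in the left pools against 1421, 1039 and 799 in the right pools. The right pool of embryo 1 was the highest and its left pool the lowest, while the other pairs were close, so the mean log2 ratio was 0.44 ± 0.76 with embryo 1 and 0.01 without it. Syndecan 4 (Sdc4), a syndecan of focal adhesions, read 62.1, 30.2 and 161 (left) and 302, 8.91 and 136 (right). Its sign changed between embryos, with log2 ratios of 2.28, −1.76 and −0.24 and a mean of 0.10 ± 2.04, or −0.999 without embryo 1, and the right pool of embryo 1 alone exceeded the limit. Syndecan 2 (Sdc2) read 201, 192 and 197 in the left pools against 179, 145 and 164 in the right pools. The sides did not overlap, but the mean log2 ratio was −0.28 ± 0.12, within 1.5-fold in each embryo, and its second tested probe set gave 1.30, −0.64 and −0.91. That second probe set was tested only through the right pool of embryo 1, at 392. Perlecan (Hspg2) had a mean log2 ratio of −0.08 ± 0.38, with signals from 486 to 783 in the 6 pools.

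The chains are started and extended by the exostosin family, in which Ext1 and Ext2 form the polymerase and Extl3 adds the first sugar of the chain. Ext1 read 393, 327 and 567 (left) and 759, 601 and 485 (right). It was higher on the right in embryos 1 and 2 (log2 ratios 0.95 and 0.88) and lower in embryo 3 (−0.22), so it failed the fold rule on sign, with a mean of 0.53 ± 0.66, or 0.33 without embryo 1. Extl3 read 1262, 1874 and 1622 in the left pools against 2042, 2109 and 1730 in the right pools. The right pool was higher in each embryo, beyond 1.5-fold in embryo 1 alone, and the mean log2 ratio was 0.32 ± 0.33 (95% interval −0.09 to 0.73), or 0.13 without embryo 1. Its relative Extl2, which can cap a young chain, read 1464, 2446 and 1577 (left) and 1063, 1774 and 1811 (right). The mean of its ratios was −0.24 ± 0.38, and a second probe set gave −0.36. Ext2 was nearly level, at −0.12 ± 0.20, and Extl1 stayed under the limit, with no signal over 72.4.

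Sulfation of the chain begins with N-deacetylase/N-sulfotransferases of the Ndst family. Ndst2 read 375, 357 and 293 in the left pools against 261, 270 and 160 in the right pools. All left values lay above all right values, and the log2 ratios of −0.53, −0.40 and −0.87 gave a mean of −0.60 ± 0.25, with a 95% interval from −1.27 to 0.06 (limma, unadjusted p = 0.071, adjusted p = 0.974). A single embryo was beyond 1.5-fold, so Ndst2 did not meet the fold rule, but it did after quantile normalization (mean −0.64) and after median scaling (−0.69). Its paralogue Ndst4 met the rule with higher values on the right, from a probe set that was low in both pools of embryo 2. It read 196, 8.78 and 175 (left) and 321, 60.6 and 187 (right). The lowest values on both sides were from embryo 2, the sides overlapped, and 1 pool of 6 exceeded 200. The log2 ratios of 0.71, 2.79 and 0.10 gave a mean of 1.20 ± 1.41 (limma, unadjusted p = 0.116, adjusted p = 0.974), against 0.53 with 50 added to each signal, 0.40 without embryo 2, 1.44 without embryo 1 and 1.11 after median scaling, and under each of these the rule was not met. The right pool of embryo 1, in which mesenchyme and muscle genes were high, was the pool that took Ndst4 past the limit, and the part of that pool's makeup in the result was not tested. Ndst3 stayed under the limit, with no signal over 159.

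The later steps are made by an epimerase, Glce, and by O-sulfotransferases that act on set positions of the sugar. Hs2st1 read 4124, 4284 and 4393 in the left pools against 4480, 3836 and 3956 in the right pools. Its sides overlapped, with a mean log2 ratio of −0.06 ± 0.16 (95% interval −0.37 to 0.24), and its other 3 tested probe sets gave means from 0.04 to 0.24. Glce read 1636, 1193 and 1843 (left) and 1558, 1405 and 1962 (right), a mean log2 ratio of 0.09 ± 0.15 (95% interval −0.29 to 0.46). For the brightest probe set of each of these enzymes a 1.5-fold difference lay outside the interval. It lay inside that of a dimmer Hs2st1 probe set (−0.22 to 0.70) and just inside that of the second tested Glce probe set (−0.46 to 0.59). Among the 6-O-sulfotransferases, which make the sulfate that the Sulf enzymes remove, Hs6st2 read 863, 942 and 862 in the left pools against 442, 522 and 929 in the right pools. The left pool was higher in embryos 1 and 2 (log2 ratios −0.97 and −0.85) and slightly lower in embryo 3 (0.11), so the sign condition failed, with a mean of −0.57 ± 0.59. A second Hs6st2 probe set was nearly level, at −0.10 ± 0.10. Hs6st1 had a mean log2 ratio of 0.08 ± 0.16, and Hs6st3 and the 3-O-sulfotransferase Hs3st1 stayed under the limit in all pools.

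Sulf1 and Sulf2 are secreted sulfatases that trim 6-O-sulfate from finished chains outside the cell. Sulf1 met the fold rule with higher values on the right. It read 115, 20.2 and 174 (left) and 203, 211 and 206 (right). The 3 right values lay together just above the limit of 200, the 3 left values were lower and spread widely, and the sides did not overlap. The log2 ratios of 0.82, 3.38 and 0.25 gave a mean of 1.48 ± 1.67, with a 95% interval from −0.04 to 3.00 (limma, unadjusted p = 0.055, adjusted p = 0.974). The size of this mean came largely from the left pool of embryo 2: without embryo 2 it was 0.53, without embryo 1 it was 1.81, and the rule was met in neither case. The probe set was tested only because its right pools passed the limit, and the other 2 probe sets of Sulf1 did not reach it.

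Sulf2 read 1913, 1893 and 2567 in the left pools against 3040, 2587 and 2544 in the right pools. It was higher on the right in embryos 1 and 2 and level in embryo 3, with a mean log2 ratio of 0.37 ± 0.35 (95% interval −0.03 to 0.76), or 0.22 without embryo 1. Its second tested probe set read 1279, 1204 and 1091 (left) and 1422, 1204 and 1191 (right), a mean of 0.09 ± 0.08. Heparanase (Hpse), which cuts the chains, stayed under the limit and was not tested. Its signals of 121, 87.2 and 45.4 in the left pools against 28.3, 11.2 and 16.5 in the right pools did not overlap, but all lie under the limit, so no ratio is read from them.

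**Figure D3:**
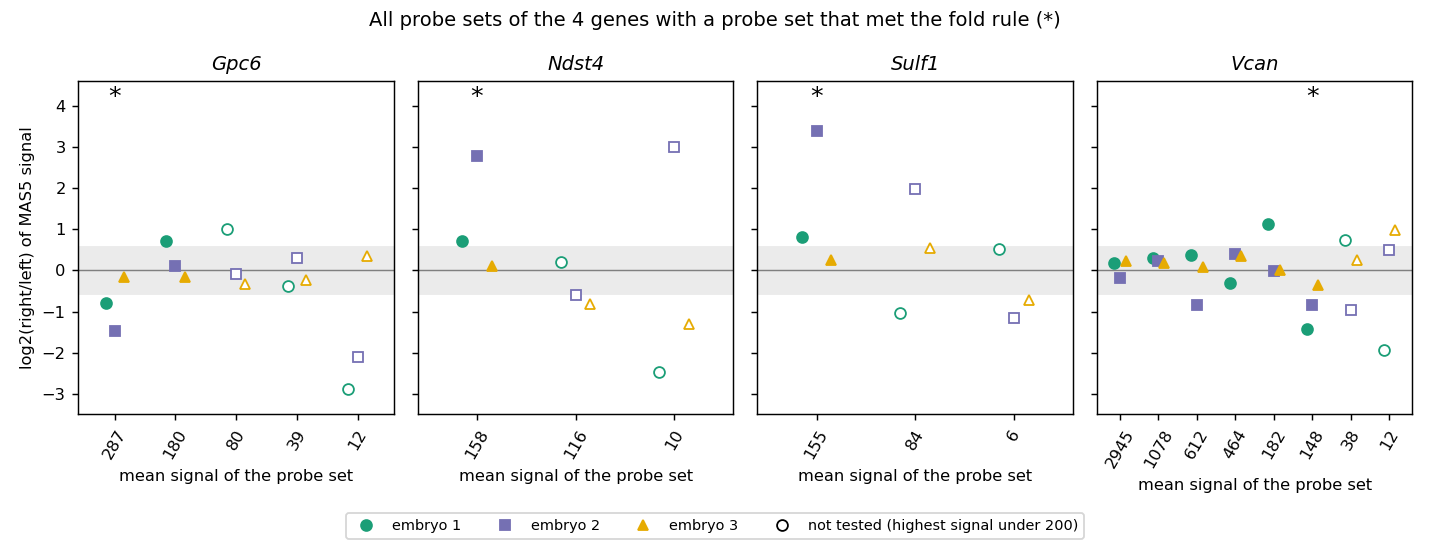
Log2(right/left) of MAS5 signal in each embryo for all probe sets of Gpc6, Ndst4, Sulf1 and Vcan, ordered by mean signal over the 6 pools along the horizontal axis; filled markers are tested probe sets, open markers those under the limit of 200, the band spans 1.5-fold and an asterisk marks the probe set that met the fold rule. In each gene 1 probe set met the rule, and the other probe sets of the gene scatter on both sides of 0.

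Among the core proteins that carry chondroitin sulfate, versican, neurocan, brevican and aggrecan form the lectican family, which binds hyaluronan in the matrix. Versican (Vcan) read 1896, 3593 and 3150 (left) and 2165, 3154 and 3715 (right). The sides overlapped and the mean log2 ratio was 0.08 ± 0.23 (95% interval −0.27 to 0.43). Both pools of embryo 1 were below all pools of the other embryos. A dimmer probe set of Vcan met the fold rule with higher values on the left. It read 41.3, 367 and 146 in the left pools against 15.3, 204 and 114 in the right pools. The left pool was higher in each embryo, but only the pools of embryo 2 passed 200 and the sides overlapped, with log2 ratios of −1.43, −0.85 and −0.35 and a mean of −0.88 ± 0.54 (limma, unadjusted p = 0.186, adjusted p = 0.974). With 50 added to each signal its mean was −0.48, without embryo 1 it was −0.60 and without embryo 2 it was −0.89, and the rule was met in none of these cases. Of the other 5 tested probe sets of Vcan, 4 had a positive mean ratio.

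Neurocan (Ncan), a lectican of nervous tissue, read 2289, 2369 and 2216 (left) and 1794, 1745 and 2428 (right). The sides overlapped, with a mean log2 ratio of −0.22 ± 0.31, and its other 2 probe sets gave 0.18 and −0.15. Brevican (Bcan) passed the limit in 1 pool and changed sign between embryos, with log2 ratios of 0.02, −1.36 and 2.60. Aggrecan (Acan), the lectican of cartilage, read at most 50.1. Ptprz1, a receptor phosphatase that itself carries chondroitin sulfate, read 692, 770 and 349 in the left pools against 668, 816 and 429 in the right pools, so that both pools of embryo 3 were lowest and the mean log2 ratio was 0.11 ± 0.17. Cspg5 was level at 0.13 ± 0.29, and Cspg4, a marker of pericytes and oligodendrocyte precursors, gave −0.19 ± 0.54.

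Of the enzymes that make chondroitin sulfate, Chsy1 and Chpf extend the chain and Chst11 adds sulfate to it. Chst11 read 995, 1514 and 787 (left) and 832, 799 and 693 (right). The left pool was higher in each embryo, beyond 1.5-fold in embryo 2 alone, and the mean log2 ratio was −0.46 ± 0.41 (95% interval −0.94 to 0.03). A second probe set of Chst11 read 770, 722 and 597 in the left pools against 1130, 881 and 605 in the right pools, a mean of 0.29 ± 0.27 with the opposite sign in every embryo. Chsy1 read 278, 574 and 383 (left) and 797, 358 and 322 (right). Its embryos disagreed, with log2 ratios of 1.52, −0.68 and −0.25 and a mean of 0.20 ± 1.17, or −0.47 without embryo 1. Chpf stayed just under the limit, with a highest signal of 187.

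Ptprs, Ptprf and Ptprd are the 3 receptor tyrosine phosphatases of the LAR family, and Ptprs binds both kinds of chain. Ptprs read 4335, 4599 and 3786 in the left pools against 5402, 4888 and 3814 in the right pools. The mean log2 ratio was 0.14 ± 0.16 (95% interval −0.16 to 0.44), and its other 3 probe sets gave means from −0.02 to 0.37. Ptprf, which is LAR itself, read 4659, 5843 and 4876 (left) and 4048, 6705 and 4500 (right), a mean of −0.04 ± 0.21 (95% interval −0.35 to 0.27). Ptprd read 7245, 5075 and 5199 in the left pools against 7011, 5252 and 4926 in the right pools, a mean of −0.03 ± 0.07 (95% interval −0.30 to 0.25). For the brightest probe sets of these receptors the sides overlapped, and each interval left out a 1.5-fold difference in either direction. Intervals of some dimmer tested probe sets reached past 1.5-fold, as for Ptprs (−0.39 to 1.12), Ptprf (−0.19 to 1.04) and Ptprd (−0.90 to 0.43).

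Different tested probe sets of a gene did not always give a mean ratio of the same sign. Of the 16 genes with several tested probe sets, 6 (Extl2, Glce, Hs6st2, Ptprz1, Sdc2 and Sulf2) had mean ratios of 1 sign and 10 had both signs. Some of these means were very small, such as 0.0008 for an Sdc3 probe set and −0.02 for a Ptprs probe set. The share of such genes over the whole array was not computed, so the count is not read as particular to this group. Where on its transcript each probe set binds was not analysed here.

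The littermates were compared in the same limma fit by an F test of the embryo terms, which describes these 3 animals only. At an adjusted p under 0.05, 0 of 64 proteoglycan probe sets differed between embryos (background 0.270%), and at an unadjusted p under 0.05, 13 did (20.3%, background 15.3%). These 13 came from Sdc4, Extl2, Ndst4, Glce, Ncan, Vcan with 3 probe sets, Ptprz1, Ptprf with 2 and Ptprd with 2. Brightest versican was lowest in both pools of embryo 1 (limma F test, unadjusted p = 0.00467, adjusted p = 0.147), and brightest Ptprz1 was lowest in both pools of embryo 3 (limma F test, unadjusted p = 0.00836, adjusted p = 0.179). The second tested Ptprz1 probe set did not share this, at 309, 374 and 372 (left) and 379, 603 and 336 (right). Brightest Ptprd was highest in both pools of embryo 1 (limma F test, unadjusted p = 0.0155, adjusted p = 0.216). The other Ptprd probe set among the 13 was also highest there, but a dimmer tested one was lowest there. It read 462 (left) and 418 (right) in embryo 1, against 467 to 948 in the other pools. Cell type markers differed between the embryos too. The summed signal of 9 neural progenitor genes was 8833 and 10789 in the left and right pool of embryo 1 against 14789 to 15943 in the other pools, and that of the 10 motoneuron genes was 44477 and 43819 in embryo 1 against 26409 to 35455 in the other pools, with both pools of embryo 3 lowest. Xist was high in embryo 2 alone. The brightest probe set of the Y-linked gene Eif2s3y read 569 to 1592 in embryos 1 and 3 and at most 3.08 in embryo 2. A difference of sex thus cannot be told apart from other differences of embryo 2. The part of sex and of the marked cell types in the embryo differences was not tested. The side ratios of the brightest Vcan, Ptprz1 and Ptprd probe sets stayed within 1.5-fold in all embryos. Those of the dimmer Vcan probe sets among the 13 did not, and each had a log2 ratio of −0.85 in embryo 2.

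The rest of the pathway was read through 72 further genes of proteoglycan biology, of which 67 had a probe set and 41 were tested by their brightest one. Of these 41, 3 met the fold rule on the right (background 2.40%) and 1 on the left (background 1.55%). In limma 0 had an adjusted p under 0.05 and 2 (Dcn and Mdk) an unadjusted p under 0.05 (background 3.40%), and the median log2 ratio of the 41 was 0.14. No gene met the rule among the enzymes that make the linker and the sugar donors (8 tested), the further enzymes of chondroitin and dermatan sulfate (7) or the lysosomal enzymes that break the chains down (7). Agrin (Agrn), a heparan sulfate proteoglycan that motoneurons release at the neuromuscular junction, read 2814, 2761 and 2414 (left) and 3005, 3060 and 2724 (right). It was higher on the right in each embryo but by little, with a mean log2 ratio of 0.14 ± 0.04. Col18a1, a basement membrane collagen with heparan sulfate chains, met the rule on the right, at 199, 128 and 176 in the left pools against 316, 279 and 211 in the right pools. It passed the limit in its right pools only, and so was tested only through the side on which it was high.

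Small leucine-rich proteoglycans, which are made mostly by connective tissue cells, supplied the other genes higher on the right, Fmod and Ogn. Fmod read 2.96, 2.62 and 4.81 (left) and 408, 52.8 and 23.2 (right), and Ogn read 2.56, 12.0 and 4.51 (left) and 336, 57.8 and 8.52 (right). Both were tested only because the right pool of embryo 1 passed the limit, and without embryo 1 neither reached it. Decorin (Dcn) read 5.73, 34.1 and 234 (left) and 532, 205 and 209 (right), with no shared direction. Over the 9 genes of the list the summed signal was 705, 681 and 1082 on the left side of embryos 1, 2 and 3, and 3481, 1324 and 1024 on the right side. Over the 17 mesenchyme and sclerotome genes it was 3357, 2096 and 3198 on the left side and 20551, 3878 and 3143 on the right side. Both lists were highest in the right pool of embryo 1, higher on the right in embryo 2 and nearly level in embryo 3. Of the 11 tested mesenchyme genes, 3 met the fold rule on the right (Col1a2, Meox2 and Fbln1), while Col5a1, Twist1, Meox1, Pax1, Pax9 and Foxc2 reached the limit in no pool. It was also met on the right by 2 of 3 tested roof plate and dorsal progenitor genes (Zic1 and Olig3). The same held for 1 of 7 tested neural progenitor genes (Pax6) and 1 of 7 tested skeletal muscle genes (Myog). The background on the right was 2.40%. The part of mesenchymal cells in the ratios of Gpc3, Sdc1, Sdc4, Chsy1, Sulf1 and the leucine-rich genes was not tested.

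**Figure D4:**
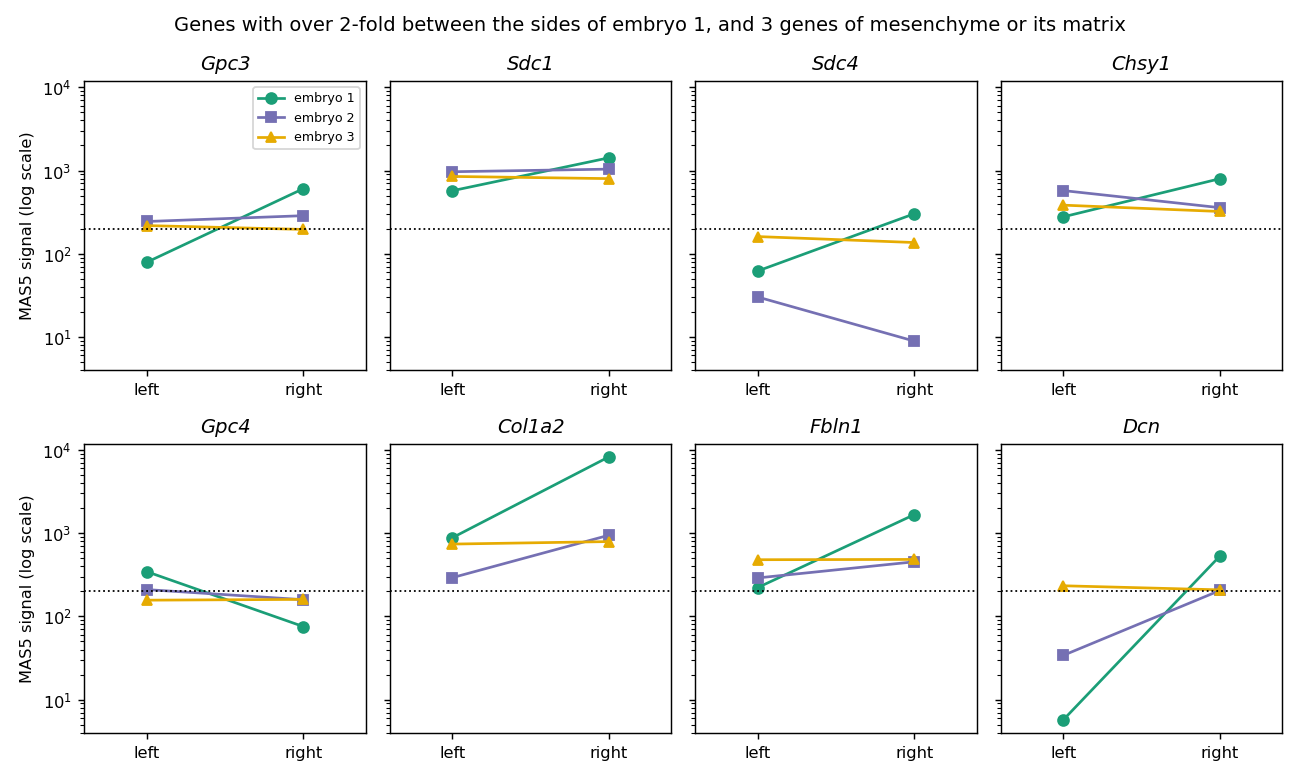
MAS5 signal (log scale) in the left and right pool of each embryo, with a line joining the pools of an embryo, for the 5 proteoglycan genes over 2-fold apart in embryo 1 (Gpc3, Sdc1, Sdc4, Chsy1 and Gpc4) and for Col1a2, Fbln1 and Dcn; the dotted line is the limit of 200. The line of embryo 1 climbs steeply to the right in all panels but that of Gpc4, where it falls, and the lines of embryo 3 are nearly flat.

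Among secreted ligands that bind these chains, midkine (Mdk) read 255, 294 and 309 in the left pools against 1208, 393 and 357 in the right pools. All right values lay above all left values, most of all in embryo 1 (mean log2 ratio 0.96 ± 1.12, or 0.31 without embryo 1, limma, unadjusted p = 0.0382, adjusted p = 0.974). Its relative pleiotrophin (Ptn), a ligand of Ptprz1, read 7178, 7969 and 10076 (left) and 13457, 6556 and 10087 (right), with no shared direction. Tenascin R (Tnr), a matrix partner of the lecticans, met the fold rule on the left, at 367, 300 and 143 in the left pools against 237, 151 and 120 in the right pools.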

How the data were processed

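GFP-positive regions were captured by laser and their RNA, after amplification and biotin labelling, was read on Affymetrix Mouse 430 2.0 arrays. MAS5 signal intensities were deposited, made by the authors in Affymetrix Expression Console (no version stated) and scaled on each array to a trimmed mean of 500. Detection calls were not used here.

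The 64 control probe sets were left out. Genes were named by the platform annotation, and only probe sets with 1 gene were used. Probe sets whose highest intensity reached 200 were tested, on log2 values with no constant added and no further scaling. Pools of an embryo were paired because they came from the same animal and sections. After removal of side means, they correlated at 0.241, 0.215 and 0.495 in embryos 1, 2 and 3. limma 3.58.1 in R 4.3.3 was fitted with side and embryo, moderated variances with a trend and Benjamini-Hochberg adjustment over all 21853 probe sets. The script was tested on simulated data. Figures were drawn with matplotlib 3.10.9 in Python 3.11.15.

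Full values were given for proteoglycan probe sets that met the fold rule or had an unadjusted side p under 0.05 and for up to 3 genes per role with the highest signal. Further genes were added after their values were seen: those over 2-fold apart in an embryo, those without overlap of sides and those with embryo p-values. The members, lists and rules were chosen with earlier results of these data known. Precision was limited by the 6 arrays. Scaling, an added constant, the filter, the fold limit, the embryo block, the variance trend and each embryo were varied.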

Additional observations from a re-analysis of the deposited data

How the results depend on the processing

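In brackets after each number is the share of all probe sets tested in the same fit. The number of proteoglycan probe sets higher on the right by the fold rule was 2 (2.40%). It was 2 after quantile normalization (2.14%), 1 after median scaling (2.09%), 1 with 50 added to each signal (1.52%), 4 with no filter (6.23%), 0 with a mean signal of at least 200 (1.31%), 0 at a 2-fold limit (0.874%) and 0 when all 3 embryos had to pass (0.384%). On the left the number was 2 (1.55%). It was 3 after quantile normalization (1.84%) and 3 after median scaling (1.96%), with Ndst2 added, 1 with 50 added (0.901%), 4 with no filter (3.77%), 1 with a mean signal of at least 200 (0.988%), 0 at a 2-fold limit (0.435%) and 0 when all 3 embryos had to pass (0.224%). With an embryo left out, both numbers ranged from 0 to 3. On the right they were 0 without embryo 1 (0.695%), 0 without embryo 2 (0.888%) and 3 without embryo 3 (4.66%), where Ext1 joined. On the left they were 0 (0.786%), 0 (0.687%) and 3 (2.87%), where Hs6st2 joined. With 2 embryos, both had to pass.

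No proteoglycan probe set differed between sides in limma at an adjusted p under 0.05 under any alternative. Over all tested probe sets the number was also 0, except for 2 of 20729 without embryo 1 and 21 of 20825 without embryo 2. At an unadjusted p under 0.05, 0 to 5 proteoglycan probe sets passed. The share over all probe sets at that threshold was computed in the main fit only (3.40%), so these numbers are not read against a background. Without the embryo block, 0 proteoglycan probe sets passed at an adjusted p under 0.05 and 0 at an unadjusted p under 0.05. Differences between embryos were called for 2 probe sets without embryo 1 (Glce and Ptprz1, 3.57% of proteoglycan probe sets against 5.15% of all), 2 without embryo 2 (both Vcan, 3.23% against 6.20%) and 0 without embryo 3 (0.0568%). The median log2 ratio was −0.0059 after median scaling, which moved that of all tested probe sets to −0.07, and 0.04 to 0.09 otherwise. Of 204 values of 34 named probe sets under 6 alternatives, 189 kept their sign and 15 changed it, 4 of these without embryo 1 and none in a probe set that met the fold rule. The rule was lost in 11 values and newly met in 4. The no-filter numbers come from 100 probe sets in place of 64; for the other settings the cause was not tested. Signals near or under 200 limit what can be read for Sdc2, Sdc4, Gpc4, Ndst4, Sulf1 and Bcan.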
